A study of Mus musculus with 6 samples.

Results

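The transcripts of the ribosomal proteins, the protein parts of the cell's translation machines, were followed in inguinal white adipose tissue (iWAT) of mice fed a Western diet (WD) for 12 weeks. Members were chosen by symbol alone, as *Rpl* or *Rps* with a digit (without the *Rps6k* kinases), *Rplp0*, *Rplp1*, *Rplp2*, *Rpsa*, and every symbol that starts with *Mrpl* or *Mrps*. This gave 150 of the 19509 symbols in the table, of which 84 belong to the cytosolic and 66 to the mitochondrial ribosome. The 84 cytosolic symbols hold 68 core subunits, 8 paralogs or relatives of them and 8 symbols of pseudogenes, and the 66 mitochondrial symbols hold 62 core subunits and 4 relatives. A symbol with several rows of counts is represented by the row with the most counts.

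The study made these libraries to ask how the long noncoding RNA *Lexis* acts on gene expression in fat. The groups differ in genotype and share the tissue and the WD. Both carry the floxed *Lexis* allele (*Lexis* fl/fl). *Lexis*-AdWT mice were littermate controls without Cre, and *Lexis*-AdKO mice also carried *Adipoq*-cre, which is driven by the adiponectin promoter and so acts in adipocytes, while the other cells of the depot keep the gene. All were on a C57BL/6 background, with 3 libraries per group, and the sources used here give neither the sex nor the age of these 6 mice. The count of the targeted gene, *4930412L05Rik*, was 8, 9 and 8 in AdWT and 21, 11 and 13 in AdKO. All 3 AdKO libraries were higher (log2 difference 0.87, adjusted *p* = 0.851 by edgeR), so the count does not bear the labels out. The libraries are named by their label throughout, and every direction given here rests on those labels.

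Ribosomes of the cytosol translate nuclear mRNAs. A small subunit reads the mRNA, a large subunit joins the amino acids, and each carries its proteins on ribosomal RNA. Mitochondria hold a ribosome of their own, whose proteins are all encoded in the nucleus and imported, and which makes the few membrane proteins of the respiratory chain encoded in mitochondrial DNA. Cytosolic ribosomal protein mRNAs are known for a run of pyrimidines at their 5′ end, the terminal oligopyrimidine tract, through which TOR signaling sets their translation together.

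The first bases of the genes show this feature and its limits. The windows below run from 15 bases before to 15 bases from the annotated start, are written 5′ to 3′ on the gene's strand, and come from RefSeq promoters on GRCm38.p6. Capitals mark a run of at least 6 C or T bases that begins with C and starts within 10 bases of the annotated start, and a window with no capitals holds no such run. *Rps26*, *Rps3a1* and *Rpl23* are shown because they had the smallest unadjusted *p* values among cytosolic members, *Rplp2* and *Rps24* as members with a run at the start itself, and *Mrpl20*, *Mrpl34* and *Mrpl3* because their groups did not overlap with AdKO lower.
Rps26 (chr10:128626492-128626521, minus strand): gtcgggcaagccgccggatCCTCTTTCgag
Rps3a1 (chr3:86142654-86142683, minus strand): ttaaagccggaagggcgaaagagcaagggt
Rpl23 (chr11:97782425-97782454, minus strand): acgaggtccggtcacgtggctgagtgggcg
Rplp2 (chr7:141447636-141447665, plus strand): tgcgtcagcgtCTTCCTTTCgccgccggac
Rps24 (chr14:24490663-24490692, plus strand): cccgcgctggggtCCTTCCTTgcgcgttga
Mrpl20 (chr4:155802863-155802892, plus strand): tgactttcggaagagctgtcagtgctctta
Mrpl34 (chr8:71464911-71464940, plus strand): gaactacatttcccagaaggcattgtcaag
Mrpl3 (chr9:105053253-105053282, plus strand): aagtggcccggctgtgCTTTTCCTCCgcgg

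Such a run was present in 28 of the 59 cytosolic genes found in the promoter table (47.5%), in 14 of 59 mitochondrial genes (23.7%) and in 5508 of all 27025 genes (20.4%). Counted over start sites in place of genes, the shares were 41.2%, 22.2% and 17.8%. The mitochondrial share was thus near that of all genes, and the cytosolic share was above it. Only the gene strand was searched, a match is a string of letters and not a measured tract, and an annotated start a few bases off would miss one. Among cytosolic members tested between the groups, the median log2 fold change of AdKO over AdWT was 0.11 for the 23 with a run and 0.09 for the 23 without. Above 0 were 18 of the 23 with a run and 22 of the 23 without, as were 51.7% of all rows tested, and in 3 and 7 of them all AdKO libraries lay above all AdWT libraries, as in 6.16% of all rows.

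The libraries held between 14470542 and 17882713 counts. Levels are given in CPM, or counts scaled to a common library size. By library total alone, before the scaling used for all other values, 3 counts, the limit that a count of 0 allows, equal 0.168 to 0.207 CPM. The floor reflects counting error alone. Scaling was by the TMM method, and the groups were compared with edgeR's quasi-likelihood test over the 9872 rows that passed its default filter, and a fold change is given as AdKO over AdWT. The common biological coefficient of variation over all rows tested was 0.196, and the median coefficient of variation within groups was 6.73% for the cytosolic and 7.13% for the mitochondrial members tested. No row had an adjusted *p* under 0.05 (the smallest was 0.206), whereas 566 rows had an unadjusted *p* under 0.05, and DESeq2 with its default settings called 17 rows, none of them a member. The markers of white adipocytes, 11 of 15 with a row, summed to between 66731 and 88133 CPM in every library, led by *Fabp4*, *Lpl*, *Car3*, *Adipoq* and *Lep*, and among those 11 only *Pnpla2* was at 0.

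Members whose symbol has several rows in the table mostly held fewer counts than those with 1 row. Cytosolic members with 1 row, without the pseudogene symbols, had a median of 5370 counts over the 6 libraries (*n* = 44), whereas those with several rows had a median of 177 (*n* = 32), or 201 with their rows summed. The same held for the mitochondrial members, with a median of 5428 counts for 40 members with 1 row and 282 for 26 with several. Over all symbols with at least 10 counts the medians were 1197 with 1 row and 219.5 with several, so a contrast of this direction was not particular to the members, while over all symbols they were 18 and 43. Core subunits that every ribosome carries had nearly no counts in all 6 libraries together, among them *Rpl38* with 3, *Rpl11* with 2 and *Rps25* with 2, each of which has 2 rows. *Rps28* had 5 counts and *Rpl35a* 6, and *Mrpl28* and *Mrpl32* had 2 each. At 0 in every library were *Mrpl42*, *Mrps10*, *Mrps11* and *Mrps36* among the mitochondrial symbols, and *Rpl10l*, *Rpl22l1*, *Rps2-ps6*, *Rps2-ps10*, *Rps2-ps13* and *Rps27a-ps2* among the cytosolic ones.

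**Figure D1:**
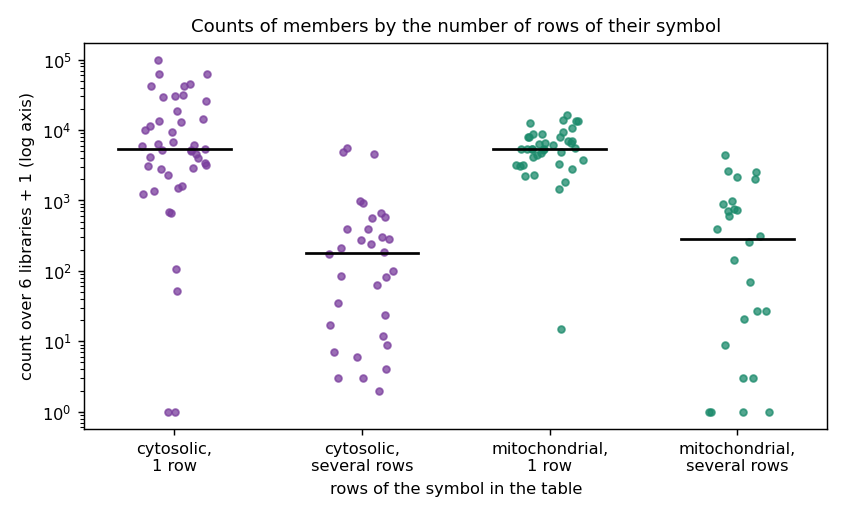
Count of each member over all 6 libraries plus 1, on a log axis, by ribosome and by whether its symbol has 1 row or several; each point is a member (pseudogene symbols left out) and each bar is the median. Members with several rows lie mostly below those with 1 row in both ribosomes, with medians of 177 against 5370 counts for the cytosolic and 282 against 5428 for the mitochondrial members.

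Many rows also share their sequence with other places in the genome. Of the 74 cytosolic members outside the pseudogene symbols whose coding sequence was matched in the annotation, 65 had at least 1 other copy in NCBIM37 (mm9) that covered 80% of the coding sequence at 95% identity, and the most was 56. Among the 66 mitochondrial members, 11 had such a copy and the most was 4. Cytosolic members with 1 row and 5 or more copies had a median of 3723 counts (*n* = 18), those with 1 to 4 copies 13351 (*n* = 19) and those with none 6533 (*n* = 6). The pseudogene symbol *Rps15a-ps4* held 4435 counts and *Rps15a* itself 3050. How shared reads were counted is not given in the sources used here, so levels are compared only among members with 1 row and folds only within a member.

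Among members with 1 row, *Rpl8* (773 CPM per kb) and *Rpl4* (738) were among the highest per kilobase of transcript, averaged over the 6 libraries. *Rpl8* lies by the site where peptide bonds are made, and *Rpl4* lines the tunnel that the new protein leaves through. The mitochondrial members reached lower levels per kilobase, with *Mrps6* at 205, *Mrpl20* at 181 and *Mrpl54* at 141 CPM per kb. Among members with 1 row and a count in every library, the low end of the cytosolic ribosome held *Rpl31* at 0.512 and *Rps3* at 0.596 CPM per kb. *Mrpl1*, with 1 row but 14 counts in all and 0 in 1 library, was at 0.041 CPM per kb. *Rpl19*, *Mrps17*, *Mrps2* and *Mrps18c*, which have several rows, held 0.129 to 0.476 CPM per kb, given as listed and not as levels to compare. *Rps3*, which has 1 row and no other copy, held 107 counts.

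The 2 ribosomes were first compared as wholes, by summing the CPM of their members in each library. The cytosolic members summed to 7081, 6793 and 6985 CPM in AdWT and to 7453, 7434 and 7348 CPM in AdKO, and the lowest AdKO library lay above the highest AdWT library. The means were 6953 ± 147 CPM (SD, *n* = 3) and 7412 ± 55.7 CPM (SD, *n* = 3), a difference of 6.60%. Large subunit members alone summed to 4268 to 4426 CPM in AdWT and 4594 to 4680 CPM in AdKO, and small subunit members to 2525 to 2655 CPM and 2754 to 2843 CPM, so that both parts of the ribosome were separated in the same direction. The separation did not rest on *Rpl4*, the member with the highest count, since without it the sums were 5801 to 6015 CPM and 6282 to 6372 CPM. As a share of all counts, with no scaling, the cytosolic members made up 0.736%, 0.635% and 0.681% in AdWT and 0.749%, 0.743% and 0.765% in AdKO. In bulk tissue, fewer cells of a type and less RNA per cell cannot be told apart.

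The mitochondrial members did not separate by label. They summed to 2748, 3020 and 3141 CPM in AdWT and to 2895, 2889 and 2863 CPM in AdKO, with means of 2970 ± 202 CPM (SD, *n* = 3) and 2882 ± 17.2 CPM (SD, *n* = 3). The groups overlapped, and the 3 libraries labelled AdWT spread on both sides of a narrow AdKO group. Per 100 cytosolic counts, there were 38.8, 44.5 and 45.0 mitochondrial counts in AdWT and 38.9, 38.9 and 39.0 in AdKO. This ratio needs no scaling between libraries. On the log2 scale its mean differed by -0.13 between AdKO and AdWT, but AdWT replicate 1 had the same ratio as the AdKO libraries, and the difference was -0.20 when that library was left out and -0.10 when AdWT replicate 3 was.

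**Figure D2:**
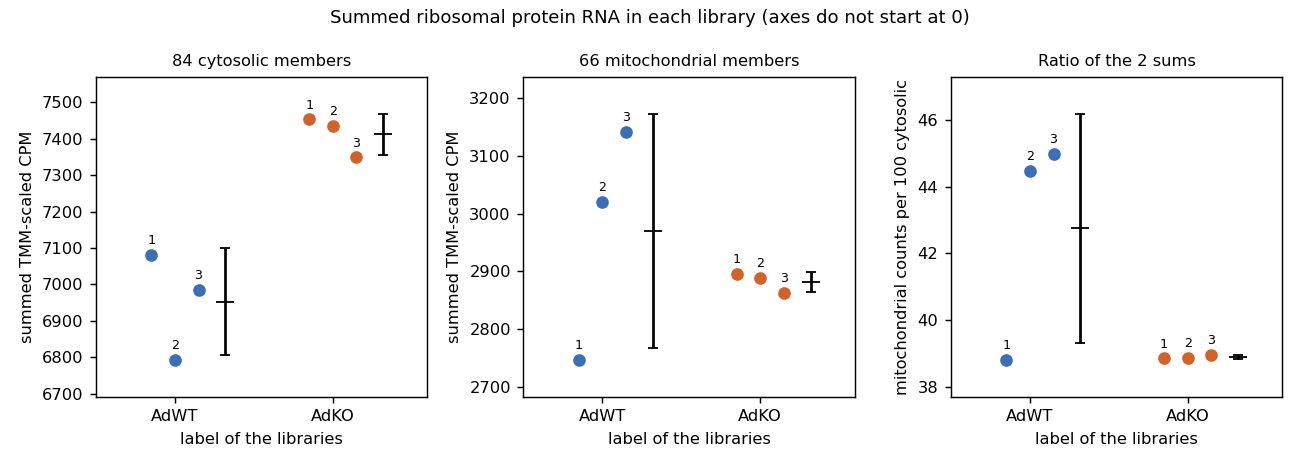
Summed TMM-scaled CPM of the 84 cytosolic members (left) and the 66 mitochondrial members (middle), and mitochondrial counts per 100 cytosolic counts (right), in each library; numbers are replicates, bars are the mean ± SD of 3 libraries, and the axes do not start at 0. The cytosolic sums do not overlap (6793 to 7081 in AdWT, 7348 to 7453 in AdKO), while AdWT replicate 1, at 38.8, sits beside the AdKO libraries in the ratio.

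The higher cytosolic sum in AdKO was spread over many members, each with a small difference. Of the 84 cytosolic members, 63 passed the filter, and 54 of these had a fold change above 0, against 51.7% of all rows tested. Their median log2 fold change was 0.10, which is 1.07-fold, with quartiles of 0.04 and 0.14, where the median of all rows was 0.01 and the median standard error of the members was 0.09. With subunits assigned by symbol, the large subunit had 32 of 36 members above 0 (median 0.10) and the small subunit 22 of 27 (median 0.10). Members with 1 row had 41 of 43 above 0, and those with several rows 13 of 20. Members share a scaling factor in each library, so they are no independent replicates of this shift.

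With adjustment over all rows by Benjamini-Hochberg, no cytosolic member passed a threshold of 0.05 in edgeR or in DESeq2, as 0% of all rows did in edgeR, and the smallest adjusted *p* of a member was 0.851 by edgeR. At an unadjusted *p* under 0.05, 3 were higher in AdKO (2.76% of all rows tested were) and 0 were lower (2.98% of all rows). This count of 3 rests on single libraries, as it was 0 of 63 without AdWT replicate 2 and 5 of 65 without AdWT replicate 1. Over all rows, 171 of 10286 and 735 of 10204 were then higher at that threshold, so the count moved with that of all rows. In 14 members, or 22.2% of those tested, all AdKO libraries lay above all AdWT libraries, where 6.16% of all rows did, and in 1 member all lay below, where 5.72% of all rows did. With RLE, upper quartile or no scaling beyond library size, 11, 10 and 14 members were separated upward. The median log2 fold change of all rows was then -0.006, -0.004 and 0.054. The 6.16% is for TMM scaling, and no share of all rows is given beside these counts.

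*Rps26*, whose protein lies where the mRNA leaves the small subunit, had the smallest unadjusted *p* of the cytosolic members. The gene lies on chromosome 10 (128061586 to 128063562, minus strand, 4 exons, NCBIM37) and has 1 row. Its level was 151, 139 and 140 CPM in AdWT and 162, 169 and 164 CPM in AdKO, with no overlap. This is a log2 difference of 0.20 (standard error 0.064, unadjusted *p* = 0.0152, adjusted *p* = 0.851 by edgeR), and it stayed between 0.17 and 0.24 with each library left out.

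*Rps3a1*, another protein of the small subunit, was at 97.8, 94.1 and 94.4 CPM in AdWT and 115, 107 and 104 CPM in AdKO. All 3 AdKO libraries were higher, the one labelled replicate 1 most. Its log2 fold change was 0.19 (standard error 0.068, unadjusted *p* = 0.0238 by edgeR). Its coding sequence was not matched in the annotation, so its copies were not counted.

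*Rpl23*, a large subunit protein also known to bind Mdm2 when ribosome assembly is disturbed, lies on chromosome 11 (97638841 to 97643751, minus strand, 5 exons). It was at 47.5, 42.6 and 46.3 CPM in AdWT and 54.3, 50.6 and 52.7 CPM in AdKO, again without overlap. The log2 fold change was 0.21 (standard error 0.078, unadjusted *p* = 0.0308 by edgeR). The symbol has 2 rows, and the row used holds 96.9% of their counts.

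The other members separated upward were mostly the abundant ones with 1 row. *Rpl8* stood at 653, 623 and 629 CPM in AdWT and 686, 706 and 701 CPM in AdKO, with a log2 difference of 0.14 (standard error 0.065). Its coefficient of variation within groups was 1.99%. *Rpl4*, with the most counts of any member, was at 1066, 992 and 993 CPM against 1081, 1100 and 1067 CPM, and here the gap between the groups was narrower than the range within either. *Rps16* (log2 fold change 0.13), *Rps14* (0.13), *Rps15* (0.09), *Rpl6* (0.13) and *Rpl7a* (0.13) were also separated; they fall outside the rule for named genes and were picked after their values were seen. *Rpl17*, by the exit of the tunnel (6.67, 7.05 and 6.42 against 7.97, 7.51 and 7.81 CPM), had a log2 fold change of 0.21 and 23 other copies in the genome. *Rpl10*, needed for the subunits to join, was at 0.29, and at 0.15 without AdWT replicate 3. *Rps24* was at 0.43, which rests on counts of 12 to 20 in a library and 5 rows.

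*Rps19*, a small subunit protein best known from inherited anemia, was the cytosolic member separated downward. It was at 51.8, 53.9 and 59.4 CPM in AdWT and 51.4, 46.8 and 50.7 CPM in AdKO, which gives -0.15 on the log2 scale (standard error 0.084, unadjusted *p* = 0.116 by edgeR). The highest AdKO library and the lowest AdWT library were nearly level. With 3 rows and no other copy it differs from most members above 0, and with no scaling beyond library size the groups of this member overlapped, as no member was then separated downward. Of the other 8 tested members below 0, *Rpl28* (-0.03) and *Rps4y2* (-0.02) have 1 row, and the remaining 6 have several rows and at most 991 counts.

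**Figure D3:**
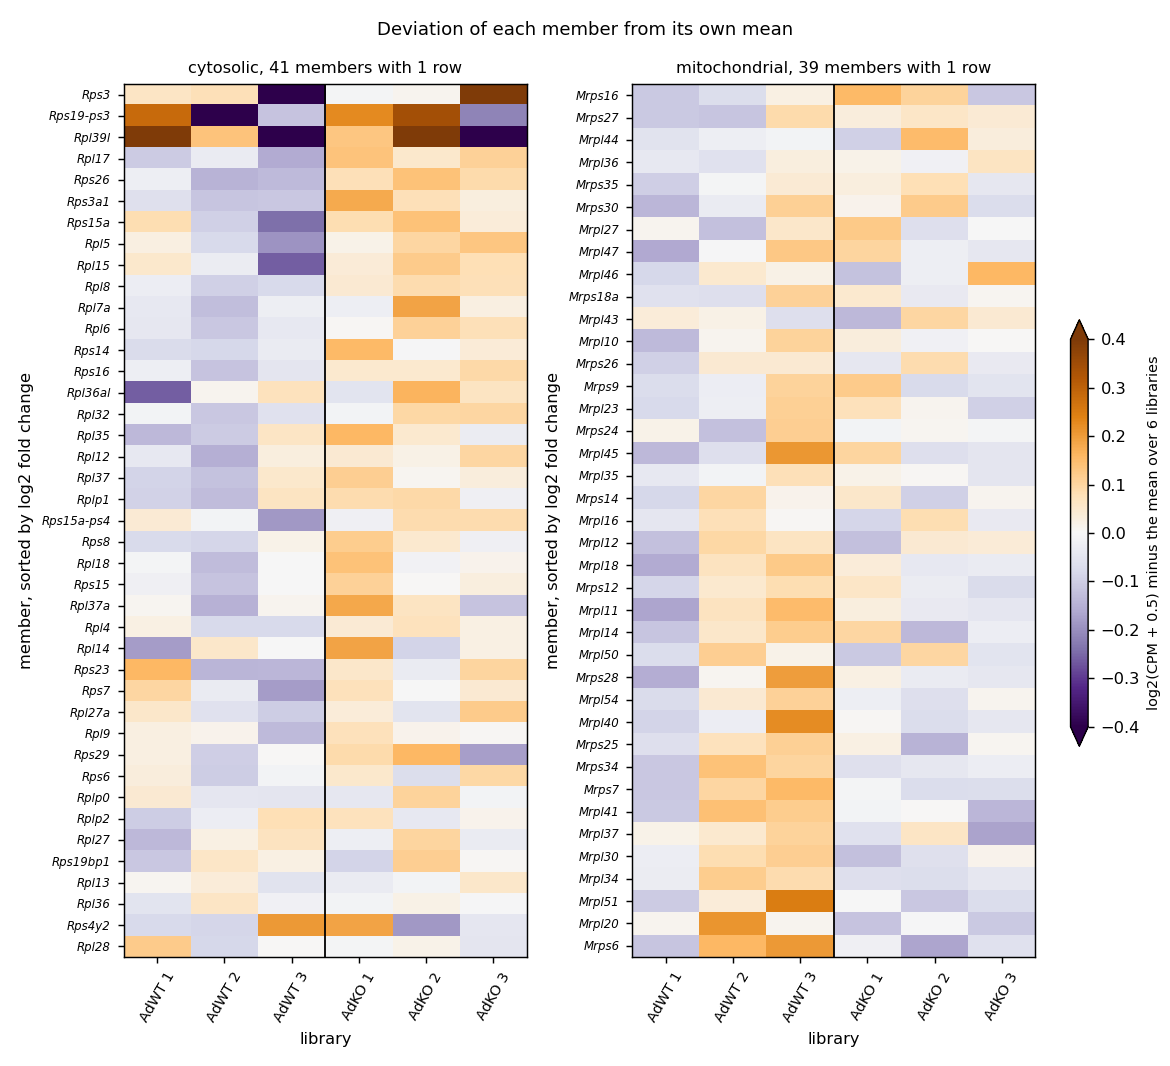
Deviation of tested members with 1 row (41 of the 43 cytosolic and all 39 mitochondrial ones are drawn) from their own mean over the 6 libraries, on the scale of log2(CPM + 0.5); rows are members sorted by log2 fold change, columns are libraries, and the line parts AdWT from AdKO. Of all 63 cytosolic members tested, 41 to 45 lie above their mean in an AdKO library and 15 to 30 in an AdWT library, while of 55 mitochondrial members 9, 30 and 47 lie above it in the AdWT libraries and 23 to 29 in the AdKO libraries.

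The stalk of the large subunit, which recruits elongation factors, is made of *Rplp0*, *Rplp1* and *Rplp2*. *Rplp0* was at 504, 473 and 472 CPM in AdWT and 474, 525 and 485 CPM in AdKO, and the groups overlapped. The log2 fold changes were 0.03 (standard error 0.072) for *Rplp0*, 0.10 (0.076) for *Rplp1* and 0.03 (0.077) for *Rplp2*. Leaving out AdWT replicate 2 gave 0.06 for *Rplp1*, and leaving out AdWT replicate 3 gave 0.15. *Rps6*, the small subunit protein phosphorylated by the S6 kinases downstream of TOR, was at 42.7 ± 2.02 CPM (SD, *n* = 3) in AdWT and 44.4 ± 2.55 CPM (SD, *n* = 3) in AdKO. *Rpsa*, also known as a laminin receptor, had 4, 3 and 2 counts against 0, 2 and 5, too few to test.

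Some of these transcripts serve as reference genes for qPCR, in which a fixed level is assumed. Of the 5 listed, *Rpl13a* was not analysed here and *Rpl19* did not pass the filter, with 2 to 13 counts in a library. *Rpl32* was at 313, 292 and 303 CPM in AdWT and 313, 337 and 338 CPM in AdKO (log2 fold change 0.12, standard error 0.067), where AdKO replicate 1 lay within the AdWT range. *Rps18* had 41 to 83 counts in a library and a log2 fold change of 0.32 with a standard error of 0.247, against 0.03 for *Rplp0*. It was 0.13 without AdWT replicate 1 and 0.56 without AdWT replicate 2. None of these differences passed the test.

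The paralogs and relatives varied among libraries, with a median coefficient of variation within groups of 10.4% over the 5 tested, where the 56 core subunits tested had 6.32%, a difference that was not tested. *Rpl39l*, a paralog of *Rpl39* known from testis, had 296, 240 and 91 counts in AdWT and 208, 399 and 124 in AdKO, a coefficient of variation of 56.3%, the largest of any member tested. Replicate 3 was the lowest of both groups. *Rpl3l*, the form of *Rpl3* made in skeletal and heart muscle, had 5, 2 and 1 counts in AdWT and 0 in all AdKO libraries, which is at the limit of detection in both groups. *Rps4y2*, a paralog of *Rps4x* with 1 exon on chromosome 6, had 1570, 1709 and 1871 against 1803, 1448 and 1752 counts, and *Rpl36al*, *Rpl7l1* and *Rps19bp1* overlapped between the groups with log2 fold changes of 0.12, 0.09 and 0.02. Without AdWT replicate 1 *Rpl36al* was at 0.02, and without AdWT replicate 3 *Rpl7l1* was at 0.02. *Rps19bp1* carries the name of a subunit but encodes a protein that binds *Rps19*.

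The mitochondrial members were centered on 0. Of 66, 55 passed the filter, 23 above and 32 below 0, and their median log2 fold change was -0.01, between quartiles of -0.07 and 0.04. The split depends on the scaling, with 39 above and 16 below under library size alone and 18 above and 37 below under RLE or upper quartile scaling. It was 15 and 40 without AdWT replicate 1 and 34 and 21 without AdWT replicate 3. With subunits assigned by symbol, the large subunit had 14 of 35 members above 0 (median -0.02) and the small subunit 9 of 20 (median -0.01). *Mrps18a* is counted in the small subunit here because of its name. At an unadjusted *p* under 0.05, edgeR found 0 members, against 566 of all rows, and DESeq2 found 0 as well. In 2 members (3.64%) all AdKO libraries lay above and in 3 (5.45%) below, which is near the 6.16% and 5.72% of all rows. These counts were 5 and 1 under library size alone and 1 and 5 under RLE or upper quartile scaling. The shares of all rows above are for TMM scaling, so these other counts have no share to be read against.

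The 3 separated downward were *Mrpl20*, *Mrpl34* and *Mrpl3*, all of the large subunit. *Mrpl20* (chromosome 4, 155177645 to 155183885, plus strand, 4 exons) was at 136, 157 and 136 CPM in AdWT and 125, 135 and 126 CPM in AdKO, which gives -0.16 on the log2 scale (standard error 0.080, unadjusted *p* = 0.0882 by edgeR). AdKO replicate 2 and the lower AdWT libraries were nearly level, and without AdWT replicate 2 the value was -0.09. *Mrpl34* was at 56.8, 62.9 and 61.5 against 55.4, 55.3 and 56.3 CPM (log2 fold change -0.12), and *Mrpl3* at -0.38 rests on 40 to 70 counts in a library. Upward, *Mrpl38* (0.50) had 19 to 32 counts and *Mrps21* (0.62) 6 to 17 counts in a library.

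*Mrps6*, the mitochondrial member with the highest level per kilobase, was at 159, 192 and 199 CPM in AdWT and 170, 153 and 166 CPM in AdKO. The AdWT libraries differed more among themselves than the groups did, as in the sum over all members, and the log2 fold change was -0.17, or -0.26 without AdWT replicate 1. *Mrpl54*, a further abundant large subunit protein, was at -0.05 on the log2 scale (standard error 0.072), at -0.10 without AdWT replicate 1 and at -0.02 without AdWT replicate 3. The relatives *Mrps18a*, which sits in the large subunit despite its name, and *Mrps18b* were at 0.01 (standard error 0.076) and -0.14 (standard error 0.124, and -0.03 without AdKO replicate 1), while *Mrps18c* held 20 counts in all.

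**Figure D4:**
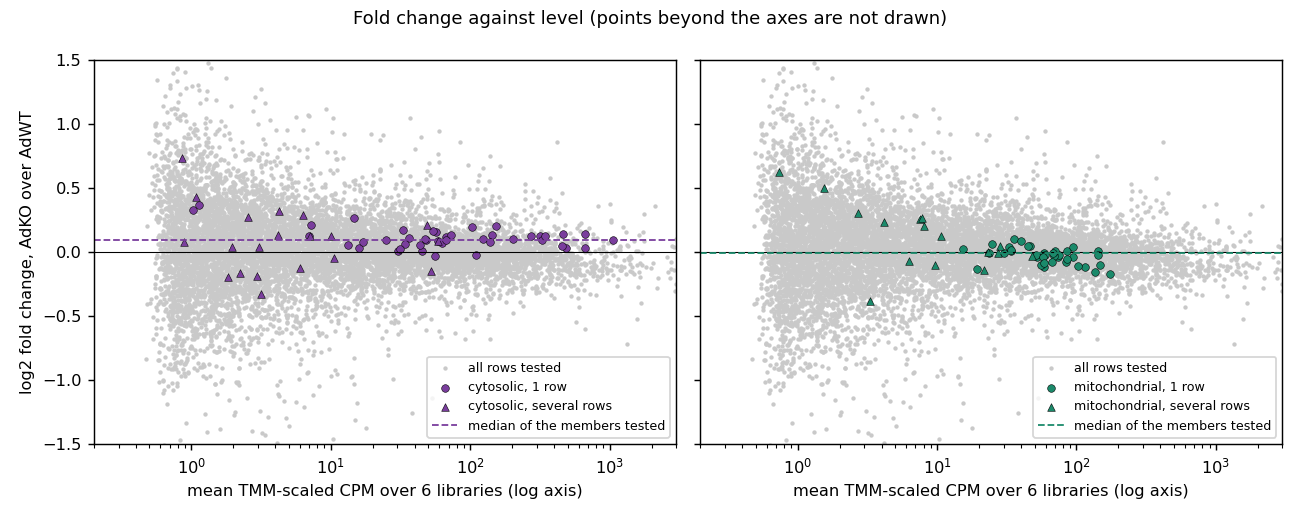
Log2 fold change of AdKO over AdWT against the mean TMM-scaled CPM over 6 libraries (log axis), for all rows tested (gray) with cytosolic members at left and mitochondrial members at right; circles are members with 1 row, triangles those with several, and the dashed lines are the medians of the members. Cytosolic circles lie between -0.03 and 0.37 around a median of 0.10 for all 63 tested, and mitochondrial circles between -0.17 and 0.10.

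Within AdWT the libraries stood apart in the mitochondrial ribosome. The median deviation of its members from their own means was -0.10, 0.01 and 0.09 (log2) in AdWT and 0.01, -0.02 and -0.03 in AdKO, so that AdWT replicate 1 was lowest and AdWT replicate 3 highest of all. In the cytosolic ribosome the medians were -0.01, -0.08 and -0.04 in AdWT and 0.04, 0.05 and 0.04 in AdKO. AdWT replicate 2 was lowest there, and the AdKO libraries were close together in both ribosomes.

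Other genes that act with ribosomes were examined from fixed lists. Of the ribosomal proteins whose symbols the rule misses, the cytosolic *Fau* and *Gnb2l1* had log2 fold changes of -0.08 and 0.22, and 4 mitochondrial ones had a median of -0.01. Both overlapped between the groups. Among cytosolic translation factors, whose mRNAs often carry the same pyrimidine tract, 11 of 15 tested lay above 0 with a median of 0.04, and 1 was higher at an unadjusted *p* under 0.05, as were 2.76% of all rows tested. This was *Eif4b*, a cofactor of the initiation helicase, at 274, 242 and 253 CPM in AdWT and 295, 289 and 282 CPM in AdKO (log2 fold change 0.17, unadjusted *p* = 0.0432 by edgeR), whereas *Eef1a1* and *Eef2* overlapped at 0.04 each.

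Genes of ribosome assembly in the nucleolus were split, with 12 of 28 above 0 and a median of -0.01. *Rrs1*, needed to build the large subunit, was at 44.6, 43.5 and 44.3 CPM in AdWT and 50.9, 54.3 and 49.2 CPM in AdKO (log2 fold change 0.22, unadjusted *p* = 0.0193 by edgeR), and *Gar1*, of the RNA pseudouridylation complexes, was at 0.25 (unadjusted *p* = 0.0479). These 2 of 28 were higher at that threshold, where 2.76% of all rows were, and 0 were lower. Mitochondrial translation factors had 5 of 9 above 0 (median 0.05) and mitochondrial ribosome assembly genes 6 of 16 (median -0.04), with 0 at an unadjusted *p* under 0.05 by edgeR in either list.

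In the list of TOR and Myc signaling, 4 of 10 tested genes lay above 0 with a median of -0.09, and 2 had an unadjusted *p* under 0.05, both lower in AdKO (2.98% of all rows tested were). *Mtor*, the kinase of both TOR complexes, was at 271, 257 and 275 CPM in AdWT and 222, 237 and 226 CPM in AdKO, with no overlap (log2 fold change -0.23, standard error 0.064, unadjusted *p* = 0.00844, adjusted *p* = 0.847 by edgeR). *Eif4ebp1*, the repressor of cap-dependent initiation that TOR inactivates, was at 451, 466 and 498 CPM against 444, 401 and 406 CPM (log2 fold change -0.18, unadjusted *p* = 0.0493 by edgeR). These are mRNA levels and give no measure of kinase activity.

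Markers of other cells in the depot were summed in the same way. The muscle markers, 12 of 15 with a row, summed to 35.6, 178 and 20.0 CPM in AdWT and 6.32 to 7.29 CPM in AdKO. *Ckm* was at 0 in every AdKO library, and *Myh4* and *Tnnt3* were at 0 in all 6 libraries. All 7 tested markers (*Atp2a1*, *Ckm*, *Myh1*, *Myh2*, *Mylpf*, *Tcap* and *Tnnc2*) were lower in AdKO at an unadjusted *p* under 0.05 by edgeR, as were 2.98% of all rows tested. With adjustment, 0 of the 7 passed 0.05, and *Myh1* overlapped between the groups. AdWT replicate 2, with the most muscle RNA, had the lowest cytosolic sum, and without it the median log2 fold change of the cytosolic members was 0.07 in place of 0.10. AdWT replicate 1, however, had more muscle RNA than AdWT replicate 3 and also the higher cytosolic sum (7081 against 6985 CPM). The adipocyte markers summed to 70932, 82406 and 88133 CPM in AdWT and 66731 to 71581 CPM in AdKO, in the same order over the AdWT libraries as the mitochondrial sum. Of 10 tested, 7 lay below 0 (median -0.19 on the log2 scale). *Lep* (-0.46, unadjusted *p* = 0.0221 by edgeR) and *Fabp4* (-0.23) did not overlap between the groups, with AdKO lower, as in 5.72% of all rows tested. Macrophage markers, 10 of 15 with a row and *Emr1* at 0, ran the other way in AdWT at 2046, 1480 and 1009 CPM, with 1725, 2061 and 2139 CPM in AdKO. Of 8 tested, 7 lay above 0 (median 0.39 on the log2 scale), with 0 at an unadjusted *p* under 0.05 by edgeR, and their group sums overlapped. Lymphocyte markers (14 of 15 with a row, *Cd8a* and *Cr2* at 0) summed to 69.0 to 87.0 and 54.1 to 76.4 CPM, with *Cd4* at -1.30 (unadjusted *p* = 0.0363 by edgeR), and epithelial markers (7 of 10 with a row) to 20.3 CPM in AdWT replicate 3, 49.0 CPM in AdKO replicate 3 and under 2 CPM in the others. The 3 rows of ribosomal and related RNA took 1.38% to 1.65% of the counts of a library and overlapped between the groups. The part of these cells and RNAs in the ribosomal protein values was not tested.

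**Figure D5:**
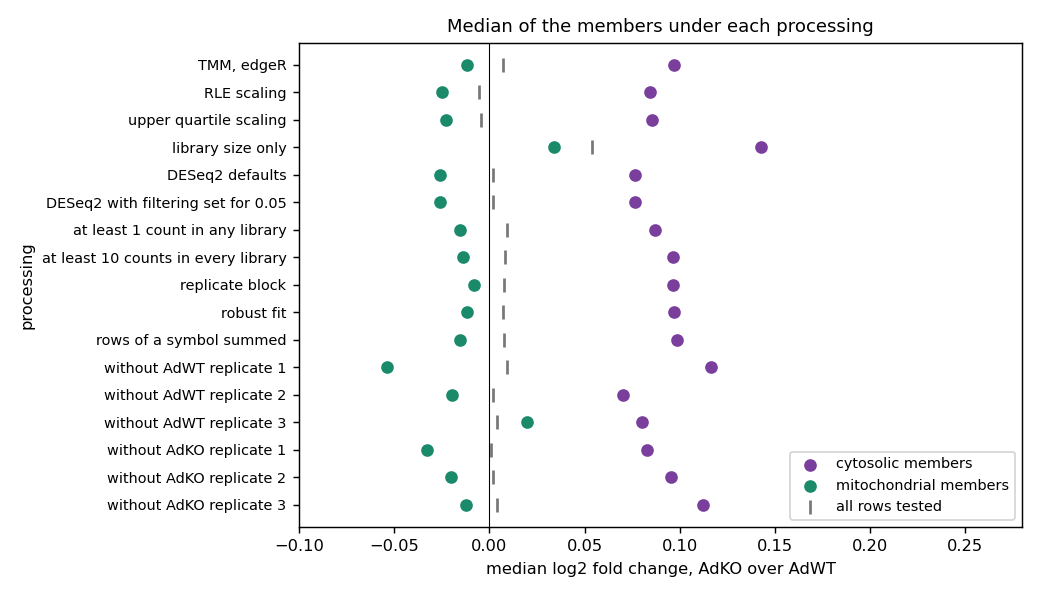
Median log2 fold change of the cytosolic and mitochondrial members, and of all rows tested (gray ticks), under each way of processing the counts and with each library left out. The cytosolic median lies between 0.07 and 0.14 and above that of all rows in every setting, while the mitochondrial median lies between -0.05 and 0.03 and changes sign with library size scaling and without AdWT replicate 3.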

How the data were processed

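RNA from iWAT of 3 *Lexis*-AdWT and 3 *Lexis*-AdKO mice was prepared with the KAPA Stranded RNA-Seq Kit. The authors aligned reads with HISAT2 to mm9 and deposited counts per row, which were assumed here to be raw and unnormalized. The counting tool is not given in the sources used here, and the submitters' processing notes name DESeq2. Replicates follow the labels. No library pair was a duplicate, and all columns belonged to a sample. Some results for single genes are left out.

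edgeR 4.0.16 in R 4.3.3 (filterByExpr, TMM, glmQLFit, glmQLFTest, Benjamini-Hochberg over 9872 rows, threshold 0.05) was tested on simulated data. Standard errors were derived from the log2 fold change and the F statistic. Copies were sought with BLAST 2.17.0 and annotation came from GENCODE M1. Python 3.11.15, numpy 2.4.6, pandas 2.3.3 and matplotlib 3.10.9 were also used, and alternatives included DESeq2 1.42.0.

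Members and lists were chosen with earlier results of these data known, so lists are described by counts and medians alone. Named genes were members with an unadjusted *p* under 0.05, the 5 largest non-overlapping rises and 5 falls per ribosome, the 3 highest and 3 lowest per length, stalk proteins, *Rpsa*, *Rps6*, paralogs, reference genes, and genes of other lists with an unadjusted *p* under 0.05.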

Additional observations from a re-analysis of the deposited data

How the results depend on the processing

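The cytosolic median log2 fold change (0.10) stayed above 0 and above that of all rows in every alternative. It was 0.14 with library size alone, which moved the median of all rows to 0.05, and 0.14 for the 6 members with 1 row and no other copy, an alternative added after the data were seen, where the 34 with 1 row and other copies had 0.09; with each library left out it lay between 0.070 (without AdWT replicate 2) and 0.12 (without AdWT replicate 1). The mitochondrial median was 0.03 with library size alone and lay between -0.05 and 0.02 with a library left out, positive without AdWT replicate 3. The difference in the log2 ratio of the sums then lay between -0.20 and -0.10. Rows with an adjusted *p* under 0.05 numbered 0 with edgeR, 17 with DESeq2 at its defaults, 27 with DESeq2 filtering set for 0.05 (added after the data were seen) and 1 when rows with 1 count in any library were kept, and 0 to 1 with a library left out, the 1 without AdKO replicate 3; none was a member. Cytosolic members with an unadjusted *p* under 0.05 (3) numbered 1 under DESeq2 in either form, higher in AdKO as were 197 of 19526 rows. They numbered 0 with the replicate number as a block, where 207 of 9872 rows were higher, and 0 to 5 with a library left out. Mitochondrial ones (0) numbered 1 with at least 10 counts in every library, higher in AdKO as were 255 of 8616 rows. With a library left out they numbered 0 to 2. The 2, without AdWT replicate 1, were lower in AdKO, as were 473 of 10204 rows. The cause of these shifts was not tested.

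Deviations of same-numbered libraries from their group means correlated at -0.08, -0.13 and 0.33. The largest value over all pairs was 0.41, for AdWT replicate 1 with AdKO replicate 2. With 3 libraries per group, these correlations cannot show whether same-numbered libraries were paired. The replicate 3 libraries of both groups had the highest epithelial marker sums (20.3 and 49.0 CPM). Under the block, cytosolic and mitochondrial medians were 0.10 and -0.01 and 0 rows had an adjusted *p* under 0.05. Of the named members, *Mrps18a* (0.01) was at -0.0028 under RLE, -0.0015 under upper quartile scaling and -0.0049 under DESeq2 in both forms, and *Rps4y2* (-0.024) at 0.023 with library size alone. With a library left out, *Mrps18a* ranged from -0.025 to 0.060, *Rps4y2* from -0.13 to 0.070, *Rpl39l* from -0.30 to 0.64, *Rplp0* from -0.018 to 0.066, *Rplp2* from -0.012 to 0.070 and *Rps19bp1* from -0.042 to 0.069. The others kept their direction, and no named member gained an adjusted *p* under 0.05. Members with few counts have wide errors, and 3 replicates against 3 allow no exact permutation *p* under 0.1.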
